A study of Mus musculus with 12 samples.

Results

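The Egr, Nr4a and Ier early-response genes were described across 12 RNA-seq libraries of mouse muscle stem cells (MuSCs). The members were 10 genes found by their exact symbols in the gene counts, namely Egr1, Egr2, Egr3, Egr4, Nr4a1, Nr4a2, Nr4a3, Ier2, Ier3 and Srf, among 55335 annotated genes. All 10 had enough reads to be tested, as did 22635 genes in total. The members and the gene lists used below were chosen with earlier results of these data known. MuSCs were sorted from the hindlimb of Pax7-ZsGreen mice aged 3 to 6 months, a reporter strain in which cells that use the Pax7 promoter fluoresce green, and each of 4 groups had 3 libraries. Cells of the F group went from the sorter straight into TRIzol. 2d-U and 5d-U cells grew for 2 and 5 days on plastic coated with Matrigel and fibronectin, without compression, in a medium with serum, chicken embryo extract and FGF. 2+3d-C cells grew in the same way for 2 days and then for 3 days under a device whose pillars limit cell height. Cells from all cultures were lysed on the dish once the medium, and in 2+3d-C the device, had been taken off. The libraries are not tied to animals, cultures or sorting batches in the labels, so the p-values measure the spread between libraries, part of which may be technical.

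Early-response genes are transcribed within minutes of a signal, without the need for new protein, and their mRNAs are short-lived. Egr1 to Egr4 encode zinc-finger transcription factors, Nr4a1 to Nr4a3 orphan nuclear receptors that act without a known ligand, and Ier2 and Ier3 small regulatory proteins of growth and survival. Srf encodes serum response factor, which binds the CArG box in the promoters of many such genes together with Elk or MRTF cofactors, while CREB binds the cAMP response element (CRE). In MuSCs, early-response genes are known to rise during tissue dissociation and sorting, so freshly sorted cells are not the same as cells left in muscle.

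Promoter sequence is shown for 5 members, because it holds CArG boxes or TGACG, the core of the CRE. The full CRE was not found in it. RefSeq promoters (build GRCm38.p6, 250 bases before to 50 after each transcript start) were given for 7 of the 10 members in 11 windows. Egr1, Egr3 and Ier2 had no entry. In the first 3 sequences, read 5′ to 3′ on the strand of the gene, capitals mark TGACG on either strand, the core of the CRE.
Nr4a1 (chr15:101266596-101266845, plus strand): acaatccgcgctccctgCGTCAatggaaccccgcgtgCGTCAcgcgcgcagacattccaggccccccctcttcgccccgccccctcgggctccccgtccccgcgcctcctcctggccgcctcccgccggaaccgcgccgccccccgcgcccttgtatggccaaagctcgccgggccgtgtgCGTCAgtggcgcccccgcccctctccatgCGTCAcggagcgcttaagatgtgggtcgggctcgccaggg
Nr4a2 (chr2:57124004-57124253, minus strand): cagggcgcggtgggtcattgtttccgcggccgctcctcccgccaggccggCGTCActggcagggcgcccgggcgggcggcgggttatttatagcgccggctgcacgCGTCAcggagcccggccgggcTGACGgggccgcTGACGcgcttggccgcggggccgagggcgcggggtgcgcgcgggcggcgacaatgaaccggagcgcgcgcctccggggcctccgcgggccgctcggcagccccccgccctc
Nr4a3 (chr4:48045055-48045162, plus strand): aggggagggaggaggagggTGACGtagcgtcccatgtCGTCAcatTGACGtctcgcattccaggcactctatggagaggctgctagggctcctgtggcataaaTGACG
The Nr4a3 sequence stops after the last TGACG, 10 bases into the exon that GENCODE places there, and the Nr4a1 window precedes a RefSeq start that lies inside the longer GENCODE gene. In the next 2 sequences, capitals mark CArG boxes, which are CC, 6 bases of A or T, and GG. The Egr2 window is one of the 4 with a box among the 5 windows of that gene, and the Srf sequence ends at the first exon of the gene.
Egr2 (chr10:67537619-67537868, plus strand): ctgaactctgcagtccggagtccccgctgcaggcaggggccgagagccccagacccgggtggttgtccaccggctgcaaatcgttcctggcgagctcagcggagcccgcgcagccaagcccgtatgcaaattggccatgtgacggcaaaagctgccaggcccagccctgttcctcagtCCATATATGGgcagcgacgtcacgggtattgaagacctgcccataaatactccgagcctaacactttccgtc
Srf (chr17:46556176-46556412, minus strand): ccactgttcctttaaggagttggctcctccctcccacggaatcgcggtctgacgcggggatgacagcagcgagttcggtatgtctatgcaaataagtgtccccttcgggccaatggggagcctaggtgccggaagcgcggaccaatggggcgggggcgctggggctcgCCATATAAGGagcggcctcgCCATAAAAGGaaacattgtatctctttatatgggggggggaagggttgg

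A CArG box on either strand was found in 5 of the 11 windows of the members, which belong to Egr2 and Srf, and in 1.63% of all 32851 windows of the table. Of the 5 Egr2 windows, 3 overlap and hold the same box and cores, so the counts of windows include a site up to 3 times. Counted by gene, the box was in 2 of 7 members and in 1.81% of 27025 genes, and the core TGACG in 6 of 7 members and 23% of genes. The Srf window held 2 boxes. The core stood in 8 of the 11 windows and in 20.8% of all windows. It was searched after the sequences had been seen. Each of the 3 Nr4a windows held 4 cores, and at least 4 were found in 0.231% of all windows. The full CRE (TGACGTCA, which contains the core), the Egr site GCGTGGGCG and the NBRE of Nr4a proteins AAAGGTCA were in none of the 11 windows on either strand, and in 1.79%, 0.612% and 1.51% of all windows. These matches are descriptions of the sequence, and binding was not measured.

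The libraries held 12540745 to 62424851 reads on genes, and 3 reads, taken here as the limit of detection, correspond to 0.0481 to 0.239 CPM, or counts scaled to library size, a limit that covers counting error only. Levels are given as RPKM, reads scaled to exon length and to a library size adjusted by TMM. Libraries of the same group correlated at 0.87 to 0.97 over log2 CPM. The libraries differed in reads on gene families that are silent in most tissues (olfactory, vomeronasal and taste receptors, defensins and keratin-associated proteins). F replicates 4 and 5 and 5d-U replicate 1 had 3.81 to 7.13 such reads per kb, 5d-U replicate 6 had 0.634, and the other 8 libraries had 0.22 or fewer. Markers of other cell types also moved with the groups. The summed RPKM of 7 immune markers reached 459 to 1290 in the F libraries and 25 to 71.9 in 2+3d-C, where Ptprc had no reads, with 1.12 to 82.4 in 5d-U and 0.529 to 0.998 in 2d-U. For 6 endothelial markers, given for the groups in this same order, the sums were 224 to 358, 48.9 to 116, 0.363 to 5.6 and 0.486 to 1.53, and for 6 fibroadipogenic markers 567 to 1390, 187 to 390, 6.07 to 34.2 and 0.121 to 2.17. In 2d-U, 5 of the immune markers (Ptprc, Lyz2, C1qa, Cd74, Itgam) and 4 of the fibroadipogenic ones (Pdgfra, Lum, Dpt, Pi16) were at 0. The sum of 7 MuSC markers was 781 to 1960, 5200 to 6250, 835 to 1430 and 851 to 1010, with none at 0 in any group. In 2+3d-C most of it came from Myod1 and Sdc4, with means of 3190 and 1900 RPKM, while Pax7 and Myf5 had 13.3 and 126. Their part in the results was not tested.

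The first comparison asked how the genes differ between compressed cells and cells grown for the same 5 days without compression. In 2+3d-C against 5d-U, 8 of the 10 members rose and none fell by edgeR's quasi-likelihood test, called at an adjusted p-value below 0.05, where 9.14% of all tested genes rose and 22.6% changed in either direction. With 1 of the 12 libraries left out, the share of all tested genes that rose was 4.95% (without 5d-U replicate 6) to 8.68% (without F replicate 1). Egr1, Egr2, Egr3, Nr4a1 and Nr4a3 rose by log2 fold changes of 6.80 to 7.74, Ier2 and Ier3 by 4.26 and 4.03, and Nr4a2 by 2.44. In these 8 genes every 2+3d-C library lay above every 5d-U library, as it did in 12.6% of all tested genes. Egr4 and Srf did not pass the test. Of the marker genes, 5 of 6 endothelial, 3 of 6 fibroadipogenic and 1 of 7 immune ones rose in the same comparison, 1 immune marker (Ptprc) fell, and 4 of 7 MuSC markers (Pax7, Myod1, Vcam1, Sdc4) rose. Myod1 RNA rose from a mean of 944 to 3190 RPKM. The study took MyoD protein as a mark of progenitors and committed cells, and reported smaller fractions of both in 2+3d-C. The part of cells of these types in the rise of the members was not tested, and in bulk RNA a different share of cells of a type and a different amount of RNA per cell cannot be told apart.

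**Figure D1:**
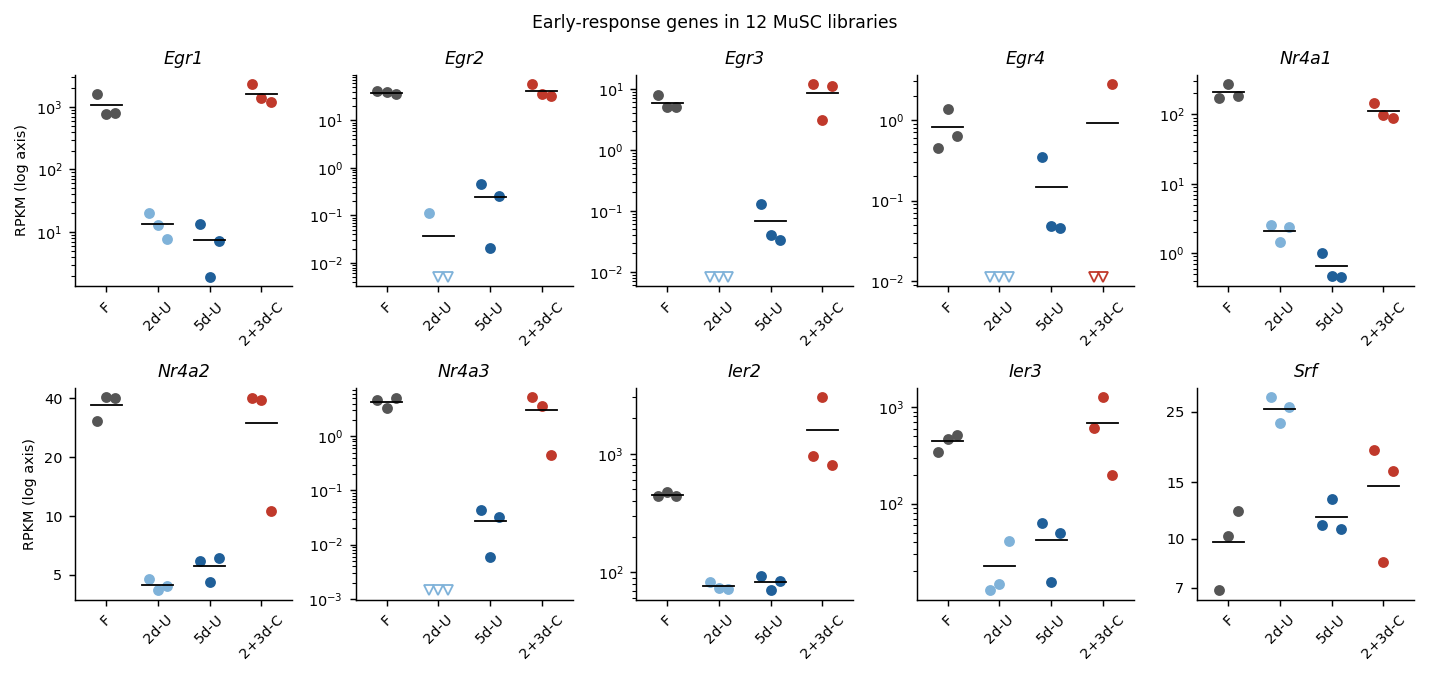
RPKM of the 10 members on a log axis of its own for each gene, with 1 point per library, 3 libraries in each of the 4 groups, and a black line at the group mean. Open triangles at the foot of a panel are libraries without a read. In 8 panels the F and 2+3d-C points lie above all 2d-U and 5d-U points, in Egr4 2 of the 3 compressed libraries have no read, and Srf is highest in 2d-U.

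Egr1 (ENSMUSG00000038418.7, chr18:34859823-34864984, build mm10), the most studied Egr factor and a target of SRF with Elk cofactors, had 2300, 1370 and 1200 RPKM in 2+3d-C replicates 4, 5 and 10. The F replicates 1, 4 and 5 had 1620, 775 and 798 RPKM, against 13.6, 1.94 and 7.17 in 5d-U replicates 1, 2 and 6 and 20.2, 12.8 and 7.72 for 2d-U replicates 1, 2 and 3. Values of the other genes follow the same order of replicates. The levels therefore formed a high pair of groups and a low pair that did not overlap, with means of 1620 ± 589 RPKM under compression (SD, n = 3) and 7.56 ± 5.83 in 5d-U cells. Between these groups, the log2 fold change was 7.74 (SE 0.80, adjusted p = 2.47e-05, edgeR's quasi-likelihood test). Among all tested genes ordered by RPKM, Egr1 ranked 8 to 48 in 2+3d-C and 15 to 23 in F, but 3361 to 8624 in 5d-U and 2760 to 4775 at 2 days. It alone took up 0.404% to 0.879% of all reads of a 2+3d-C library.

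Egr2 (ENSMUSG00000037868.15, chr10:67535475-67542188), known for its role in myelinating Schwann cells, had 57.8, 35.3 and 33.2 RPKM in 2+3d-C and 41.1, 38.9 and 35.5 in F. The 5d-U cells had 0.461, 0.0205 and 0.259 RPKM, from 36, 2 and 18 reads, and the 2d-U cells 20 reads in replicate 1 (0.111 RPKM) and none in the other libraries. Its log2 fold change in 2+3d-C against 5d-U was 7.43 (SE 1.16, adjusted p = 5.26e-04, edgeR's quasi-likelihood test). Egr3 (ENSMUSG00000033730.4, chr14:70077203-70082614), needed for muscle spindles, had 11.9, 3.04 and 11 RPKM in 2+3d-C and 7.82, 4.99 and 5.05 in F, with 13, 5 and 3 reads in 5d-U and none in 2d-U. Its log2 fold change against 5d-U was 6.99 (SE 0.89, adjusted p = 2.16e-04, edgeR's quasi-likelihood test). The density on silent families alone would give 16.8, 0.258 and 2.8 Egr3 reads in the 5d-U libraries, so in replicates 1 and 6 its counts were close to that background. Without 5d-U replicate 1, the log2 fold changes of Egr1, Egr2 and Egr3 were 8.47, 8.27 and 7.84, and with the reads expected from silent families subtracted that of Egr3 was 9.26. That subtraction leaves few Egr3 reads in 5d-U, so the size of this last value is not determined.

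Egr4 (ENSMUSG00000071341.4, chr6:85511121-85513589, minus strand), the member with the lowest mean level in F and 2+3d-C, had 2.77 RPKM (130 reads) in 2+3d-C replicate 10 and no read in replicates 4 and 5. The F libraries had 0.445, 1.36 and 0.636 RPKM, those of 5d-U 17, 3 and 2 reads, and those of 2d-U none. The groups overlapped in 2+3d-C against 5d-U, with a log2 fold change of 2.65 (SE 2.02, 95% interval -1.74 to 7.04, adjusted p = 0.314, edgeR's quasi-likelihood test), and without replicate 10 the sign turned (-6.35, adjusted p = 0.135). Within the family, Egr1 supplied 93.6% to 100% of the summed RPKM in each of the 12 libraries.

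Nr4a1 (ENSMUSG00000023034.7, chr15:101254269-101274795), also called Nur77, had 148, 98 and 88.6 RPKM in 2+3d-C and 170, 272 and 183 in F. Uncompressed cells had 2.54, 1.43 and 2.39 RPKM at 2 days (2d-U) and 1.02, 0.467 and 0.46 at 5 days (5d-U), so the 4 groups did not overlap in any pair. Its log2 fold change in 2+3d-C against 5d-U was 7.42 (SE 0.56, adjusted p = 2.8e-06, edgeR's quasi-likelihood test). Nr4a3 (ENSMUSG00000028341.9, chr4:48045153-48086447), or Nor1, had 5.19, 3.55 and 0.458 RPKM in 2+3d-C, where replicate 10 was the lowest, and 4.66, 3.35 and 4.99 in F. It had 6, 1 and 4 reads in 5d-U, where the density on silent families would give 22.8, 0.351 and 3.8, and none in 2d-U. Its log2 fold change against 5d-U was 6.80 (SE 1.11, adjusted p = 0.00112, edgeR's quasi-likelihood test), 6.17 without 2+3d-C replicate 4 and 10.12 with silent-family reads subtracted. That subtraction leaves the 5d-U libraries under the limit of 3 reads, so the size of this last value is not determined.

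Nr4a2 (ENSMUSG00000026826.13, chr2:57106830-57124003, minus strand), or Nurr1, known for its need in dopaminergic neurons, had the smallest log2 fold change of the family. It had 40.2, 38.9 and 10.6 RPKM in 2+3d-C and 30.5, 40.3 and 39.9 in F. The uncompressed cultures had 4.75, 4.19 and 4.39 RPKM at 2 days and 5.86, 4.61 and 6.1 at 5 days. Replicate 10, which was lowest in 2+3d-C for Nr4a2 and Nr4a3, still lay above all uncompressed cultures. The log2 fold change of Nr4a2 against 5d-U was 2.44 (SE 0.47, 95% interval 1.42 to 3.45), and that of Nr4a1 had an interval of 6.23 to 8.62. The make-up of the family also varied between the groups. Nr4a1 supplied 80.3% to 86.2% of the summed Nr4a RPKM in F and 69.8% to 88.9% in 2+3d-C, but 6.98% to 14.7% in 5d-U and 25.4% to 35.3% at 2 days, where Nr4a2 supplied most of the rest. These shares were described after they had been seen, without a test.

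**Figure D2:**
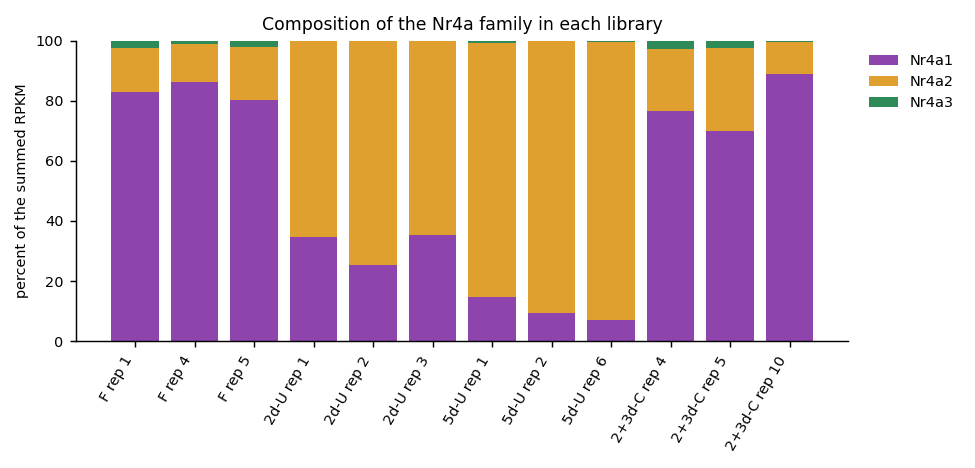
Percent of the summed RPKM of the Nr4a family taken up by each of its 3 genes, with 1 stacked bar per library and replicate numbers (rep) as in the labels. Nr4a1 makes up 69.8% or more of each F and 2+3d-C bar and 35.3% or less of each 2d-U and 5d-U bar.

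Ier2 (ENSMUSG00000053560.5, chr8:84661331-84662854, minus strand) was also abundant in uncompressed cultures. It had 82.8, 74.2 and 72.3 RPKM at 2 days and 93.3, 70.7 and 84.3 at 5 days. The F libraries had 439, 479 and 436 RPKM, and those of 2+3d-C 954, 2990 and 808. All 2+3d-C libraries were above all F libraries, and these above all others, with replicate 5 of 2+3d-C far above the rest. The log2 fold change in 2+3d-C against 5d-U was 4.26 (SE 0.51, adjusted p = 7.69e-05, edgeR's quasi-likelihood test). Ier3 (ENSMUSG00000003541.6, chr17:35821684-35822923), also known as IEX-1, had 608, 1260 and 197 RPKM in 2+3d-C and 344, 472 and 511 in F. Uncompressed cells had 12.7, 14.8 and 40.6 RPKM at 2 days and 62.2, 15.4 and 49.2 at 5 days, which overlapped with each other but not with the other groups. Its log2 fold change was 4.03 (SE 0.73, adjusted p = 0.00147, edgeR's quasi-likelihood test). Without 2+3d-C replicate 5, the values of Ier2 and Ier3 were 3.41 and 3.25.

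Srf (ENSMUSG00000015605.6, chr17:46548329-46556175, minus strand) did not share this pattern. The 2d-U libraries had 27.7, 23 and 25.9 RPKM and those of 5d-U 11, 13.3 and 10.7. Compressed cells had 19, 8.43 and 16.3 RPKM, and F cells 6.9, 10.2 and 12.2. The 2d-U libraries were above all others, and the other 3 groups overlapped. The log2 fold change in 2+3d-C against 5d-U was 0.33 (SE 0.42, 95% interval -0.56 to 1.22, adjusted p = 0.553, edgeR's quasi-likelihood test).

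**Figure D3:**
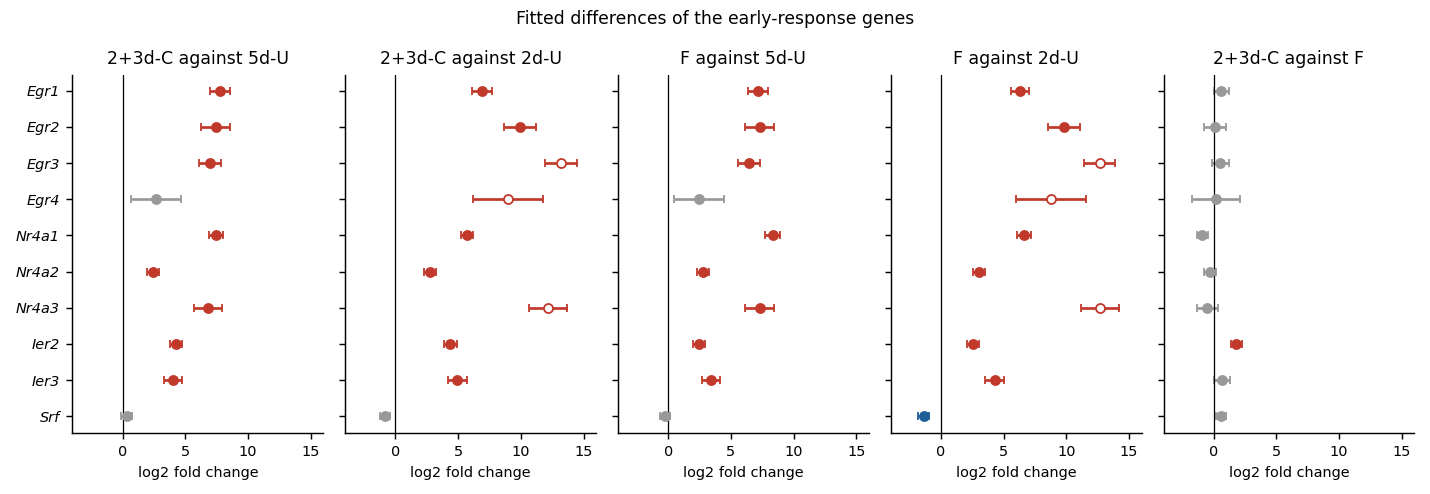
Fitted log2 fold change of each member in 5 comparisons, with bars for 1 SE. Red points are genes called higher and blue points genes called lower at an adjusted p-value under 0.05, grey points are not called, and open points have 3 or fewer reads in every library of the second group, so that their size is not determined. The points of 8 members lie to the right of 0 and are called higher in all 4 comparisons with uncompressed cultures, and in 2+3d-C against F only Ier2 is called.

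Against 2d-U cells, the state from which compression started, 9 of 10 members were higher in 2+3d-C (edgeR's quasi-likelihood test, called as above), where 16% of all tested genes were, or 8.38% (without 2d-U replicate 2) to 13.5% (without F replicate 5) with 1 library left out. In 8 of the 9 all compressed libraries lay above all 2d-U libraries, against 18.1% of all tested genes. Egr1 was higher by a log2 fold change of 6.90 (SE 0.77), Nr4a1 by 5.71 (SE 0.51), Nr4a2 by 2.75 (SE 0.48), Ier2 by 4.37 (SE 0.52) and Ier3 by 4.92 (SE 0.76). Egr3 and Nr4a3 had no read in 2d-U, and against the limit of 3 reads per library they were at least 475-fold and 229-fold higher in 2+3d-C. For Egr2, whose 2d-U reads all came from replicate 1, the fitted value was 9.94 (SE 1.30). The call of Egr4 (adjusted p = 0.0335) rested on 2+3d-C replicate 10, and it was lost when any 2d-U library was left out (adjusted p = 0.068 to 0.0777). Without 2+3d-C replicate 5, Ier2 and Ier3 had log2 fold changes of 3.53 and 4.15, Ier3 had 5.64 without 2d-U replicate 3, and Nr4a3 had a fitted value of 11.44 in place of 12.16 without 2+3d-C replicate 4. Without TMM, Nr4a2, Ier2 and Ier3 had 2.10, 3.66 and 4.19 and were still called. Without 2d-U replicate 1, Egr2 had no read left in 2d-U and a fitted value of 15.03. Srf was lower in all 2+3d-C than in all 2d-U libraries, as were 17.4% of all tested genes, but did not pass the test (log2 fold change -0.81, SE 0.42, adjusted p = 0.174). In the same comparison 6 of 6 endothelial, 6 of 6 fibroadipogenic and 2 of 7 immune markers were higher in 2+3d-C, and their part was not tested.

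Freshly sorted cells were compared with the same cultures. In F against 2d-U, 9 members were higher and Srf was lower (edgeR's quasi-likelihood test, called as above), while 33.3% of all tested genes were higher and 10.6% lower. The first of these shares was 50.8% without F replicate 1 and 13.1% to 16.9% without any other library of the 2 groups. For these 9 the F libraries did not overlap with 2d-U, as for 32.1% of all tested genes. Egr1 was higher by a log2 fold change of 6.30 (SE 0.75), Nr4a1 by 6.62 (SE 0.54), Nr4a2 by 3.05 (SE 0.49), Ier2 by 2.56 (SE 0.48) and Ier3 by 4.29 (SE 0.74), the last being 4.99 without 2d-U replicate 3. Egr3, Egr4 and Nr4a3 were at least 327-fold, 21.8-fold and 324-fold higher in F, taking the limit of 3 reads in each 2d-U library. The fitted value of Egr2 was 9.81 (SE 1.29) and, without 2d-U replicate 1, 14.89. The call of Egr4 (adjusted p = 0.027) was lost without F replicate 4 or without any of the 2d-U libraries (adjusted p = 0.0562 to 0.0653). Srf had a log2 fold change of -1.39 (SE 0.42, adjusted p = 0.0216, edgeR's quasi-likelihood test), a call lost without F replicate 1, F replicate 4 or any of the 2d-U libraries (adjusted p = 0.0615 to 0.0811). All 7 immune, 6 endothelial and 6 fibroadipogenic markers were higher in F than in 2d-U, and their part in the values of the members was not tested.

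In F against 5d-U, the 8 members that rose under compression were again higher (edgeR's quasi-likelihood test, called as above), against 8.9% of all tested genes (4.82% without 5d-U replicate 6 to 8.36% without 2+3d-C replicate 10), and both comparisons use the same 5d-U libraries. Side by side, the log2 fold changes in F and in 2+3d-C against 5d-U were 7.14 and 7.74 for Egr1, 7.29 and 7.43 for Egr2, 6.46 and 6.99 for Egr3, 8.33 and 7.42 for Nr4a1, and 7.30 and 6.80 for Nr4a3. For Nr4a2 they were 2.74 and 2.44, for Ier2 2.45 and 4.26, and for Ier3 3.39 and 4.03. Without 5d-U replicate 1, the F values of Egr1, Egr2 and Egr3 were 7.85, 8.13 and 7.29, and with silent-family reads subtracted those of Egr3 and Nr4a3 were 8.82 and 10.74. That subtraction leaves few reads of Egr3 and Nr4a3 in 5d-U, so the sizes of their subtracted values are not determined. With F replicates 4 and 5 and 5d-U replicate 1 left out, a setting chosen after the data were seen that leaves a single F library, 5 members were called and Nr4a2, Ier2 and Ier3 were not (adjusted p = 0.0732, 0.0647 and 0.0838). Egr4 was higher in each F than in each 5d-U library, as were 22.8% of all tested genes, but was not called (log2 fold change 2.47, SE 2.01, adjusted p = 0.496). Of the markers, 6 of 6 endothelial, 6 of 6 fibroadipogenic and 2 of 7 immune ones were higher in F, and their part was not tested.

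Compressed and freshly sorted cells were then compared directly. In 2+3d-C against F, Ier2 was the only member called (log2 fold change 1.81, SE 0.46, adjusted p = 0.0358, edgeR's quasi-likelihood test), where 1.94% of all tested genes were higher and 6.4% changed in either direction. The share called higher was 0.109% without F replicate 4, 0.176% without F replicate 5 and 4.27% without F replicate 1, and lay between these values without any other library. Its libraries did not overlap, as in 8.79% of all tested genes. That call depended on single libraries, since it was lost without F replicate 4 (adjusted p = 0.113), F replicate 5 (adjusted p = 0.116) or 2+3d-C replicate 5 (log2 fold change 0.98, adjusted p = 0.137), and with library sizes not scaled by TMM (1.20, adjusted p = 0.0769). Nr4a1 was lower in all 2+3d-C than in all F libraries, as were 18.3% of all tested genes, with a log2 fold change of -0.90 (SE 0.42, adjusted p = 0.136). For the other members the groups overlapped and the 95% intervals of the log2 fold change were -0.67 to 1.88 for Egr1, -1.72 to 1.98 for Egr2, -0.93 to 2.00 for Egr3, -1.27 to 0.66 for Nr4a2, -2.32 to 1.33 for Nr4a3, -0.75 to 2.03 for Ier3 and -0.31 to 1.47 for Srf. A difference of 2-fold in either direction lies inside the intervals of Egr2, Nr4a3 and Egr4, the last spanning -3.91 to 4.28. The median log2 fold change of all tested genes in this comparison was -0.76. Among the markers, 2 of 7 immune, 1 of 6 endothelial and 1 of 6 fibroadipogenic genes were called lower, where 4.47% of all tested genes were. All 2+3d-C libraries lay below all F libraries in 6, 5 and 5 of these markers, and above them in 1 fibroadipogenic marker. The median log2 fold changes of these 3 lists were -5.02, -2.30 and -3.60. Of 7 MuSC markers, 2 were called higher and 6 lay above F in all libraries. The part of the markers was not tested.

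The uncompressed cultures of 5 and 2 days were compared last. In 5d-U against 2d-U, Egr3 was the only member called (adjusted p = 0.027, edgeR's quasi-likelihood test), against 1.87% of all tested genes higher (0.525% without 2d-U replicate 3 to 4.44% without 2+3d-C replicate 10) and 2.12% changed. It rested on 13, 5 and 3 reads in 5d-U and 0 in 2d-U, a ratio of 3.68 when 2d-U is set to 3 reads per library, and the call was lost once the reads expected from silent families were subtracted (log2 fold change 3.92 in place of 6.22, adjusted p = 0.196). It was also lost without F replicate 1, 2d-U replicate 1 or 2d-U replicate 3 (adjusted p = 0.0571 to 0.0691), and without 5d-U replicate 1 the fitted value was 5.41. Nr4a1 lay lower in all 5d-U than in all 2d-U libraries, as did 5.4% of all tested genes, with a log2 fold change of -1.71 (SE 0.44, adjusted p = 0.0562), and so did Srf with -1.13 (SE 0.42, adjusted p = 0.11). Nr4a1 was called with DESeq2 (adjusted p = 0.00334), and by edgeR without a filter on low counts (adjusted p = 0.0052), without 5d-U replicate 1 (log2 fold change -2.19, adjusted p = 0.0299) and without any one of the 2+3d-C libraries (adjusted p = 0.0447 to 0.0495). Srf was called with DESeq2 (adjusted p = 0.015), and by edgeR with the 2 groups alone (adjusted p = 0.0352). Egr1, Nr4a2, Ier2 and Ier3 had log2 fold changes of -0.84, 0.31, 0.12 and 0.90, and their libraries overlapped. Egr1 had -1.57 without 5d-U replicate 1, and Ier3 had 1.62 without 2d-U replicate 3, neither of them called. Egr2, Egr4 and Nr4a3, with 36 or fewer reads in each library of these groups, were not called (adjusted p = 0.12, 0.119 and 0.0704). Egr2 was called by edgeR without a filter (adjusted p = 0.0228) and without 2d-U replicate 1 (fitted value 7.61, adjusted p = 0.0311), when no 2d-U read is left. Nr4a3 was called with DESeq2 (adjusted p = 0.0172), and by edgeR without a filter (adjusted p = 0.013), without 5d-U replicate 2 (adjusted p = 0.0419) and without 2+3d-C replicate 10 (adjusted p = 0.0218). Egr4 was called with DESeq2 (adjusted p = 7.94e-14). Nr4a3 and Egr4 had no read in 2d-U, so the size of their difference is not determined. Of the markers, 1 of 7 immune and 2 of 6 fibroadipogenic ones were higher in 5d-U, no endothelial or MuSC marker was called, and their part was not tested.

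The 10 members together took up 0.704% to 0.908% of all reads on genes in F and 0.691% to 1.15% under compression. Their share was 0.0184% to 0.0368% in 5d-U and 0.0346% to 0.0399% at 2 days. Across the 12 libraries, the log2 CPM of the members other than Egr4 and Srf correlated with each other at Pearson's r of 0.87 to 0.98, highest for Nr4a2 with Nr4a3. Egr4 correlated with these 8 genes at 0.27 to 0.59, and Srf at -0.61 to -0.36. These values describe 4 groups of libraries and the points within a group share its condition, so they are given as a description. The tested genes outside the members whose log2 CPM was most like the mean standardized profile of the members were Tapbp (r = 0.996), BC023105 (0.995), Prelp (0.993), Nfkbiz (0.992) and Serping1 (0.991) over 12 libraries. Prelp and BC023105 had no read in 2d-U, while Tapbp had mean levels of 102 and 92.9 RPKM in F and 2+3d-C, 3.98 at 5 days and 4.52 at 2 days without compression. Of 22625 genes compared, 776 (3.43%) reached an r of 0.9, so a profile of this kind was not rare.

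The list of 40 further early-response genes was chosen with earlier results of these data known, so its counts are a description. Of the 40, 36 rose and 1 fell in 2+3d-C against 5d-U (edgeR's quasi-likelihood test, called as above), where 9.14% of all tested genes rose. Their median log2 fold change was 4.57, where that of all tested genes was -1.05. Ccn1, a secreted matrix protein, had the means 3230 and 365 RPKM in 2+3d-C and 5d-U (log2 fold change 3.15), Errfi1, an inhibitor of the EGF receptor, 3260 and 155 (4.39), and the transcription factor gene Cebpb 2880 and 70.6 (5.35). The smallest p-values were those of Trib1, a pseudokinase (252 and 1.59 RPKM, log2 fold change 7.31), and of the transcription factor genes Atf3 (223 and 2.24, 6.64) and Klf4 (126 and 1.21, 6.71). Klf10, a gene induced by TGF-beta, was the one that fell, from 36.2 to 15.3 RPKM (log2 fold change -1.24, adjusted p = 0.0278), and Ier5l, Klf2 and Ptgs2 were not called. In F against 2d-U, which shares no library with that comparison, 34 of the 40 were higher, as were 33.3% of all tested genes, and none lower, with a median of 4.13 where that of all tested genes was 1.63. In 2+3d-C against F, 6 of the 40 were higher (Ccn1, Cebpb, Errfi1, Fosl1, Myc, Trib1), 2 lower (Klf2, Klf10) and 32 not called, with a median of 0.48, while 1.94% of all tested genes were higher and 4.47% lower, with a median of -0.76. Fosl1, Myc, Klf2, Klf10, Ier5l and Ptgs2 were named after their values were seen.

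**Figure D4:**
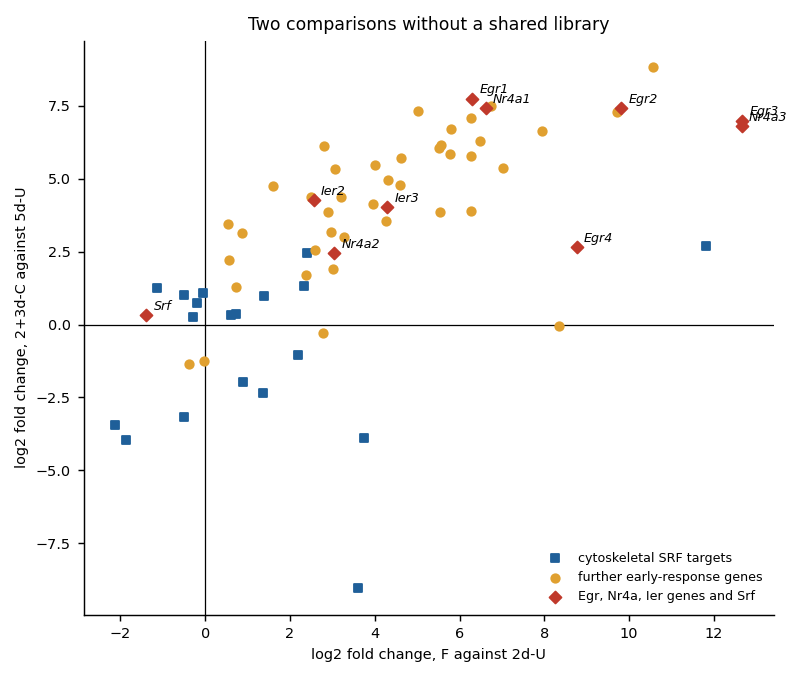
Log2 fold change in F against 2d-U (horizontal axis) and in 2+3d-C against 5d-U (vertical axis), which share no library, with 1 point per gene for the 10 members, 40 further early-response genes and 19 cytoskeletal SRF targets. Of the members, 8 are called higher in both, and Srf lies near 0 on the vertical axis. In 2+3d-C against 5d-U, 6 of the cytoskeletal genes are called lower, 2 higher and 11 not called. Egr3, Egr4, Nr4a3 and Cnn1 had no read in 2d-U and Actg2 none in 2+3d-C. The sizes of their values on the axis of that group are not determined.

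Genes of the other class of SRF targets, which build the cytoskeleton, were followed in the same libraries. Of 19 cytoskeletal genes known as targets of SRF with MRTF, 2 rose and 6 fell in 2+3d-C against 5d-U (edgeR's quasi-likelihood test, called as above), where 9.14% of all tested genes rose and 13.4% fell, and 11 were not called. Their median log2 fold change was 0.32, and that of all tested genes -1.05. This list was likewise chosen with earlier results known. Actb, for cytoplasmic actin, had the means 1580 and 6190 RPKM in 2+3d-C and 5d-U (log2 fold change -1.97, SE 0.51). Acta1, for skeletal muscle actin, had 39.3 and 577 (-3.88, SE 1.16), Tpm1, for tropomyosin, 26.1 and 409 (-3.97, SE 0.56), and Cnn2, for calponin, 8.84 and 79.4 (-3.17, SE 0.62). Actg2, which had no read in 2+3d-C, and Fhl2 also fell, and Vcl and Zyx, both of focal adhesions, rose by 2.44 and 1.25 on the log2 scale. These 4 were named after their values were seen. In 2+3d-C against F, Zyx was the only one of the 19 called. In F against 2d-U, 5 were higher and 2 lower, where 33.3% and 10.6% of all tested genes were. Against 2d-U, the state from which compression started, 3 of the 19 were higher and 2 lower in 2+3d-C, where 16% and 8.63% of all tested genes were. The 2d-U means of Actb, Acta1, Tpm1 and Cnn2 were 641, 42.3, 279 and 36.8 RPKM.

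Of 7 genes for SRF cofactors and the CREB family (Elk1, Elk3, Elk4, the 2 MRTF genes, Creb1 and Atf1), Elk4 alone rose in 2+3d-C against 5d-U, where 9.14% of all tested genes did, from 1.57 to 12.1 RPKM (log2 fold change 2.95, SE 0.53, adjusted p = 0.00141, edgeR's quasi-likelihood test). It was also the one called in 2+3d-C against 2d-U (3.18), and it was higher in F than in 2d-U (2.82) and 5d-U (2.59). Of all tested genes, 16%, 33.3% and 8.9% were higher in these 3 comparisons, in this order. A single call among 7 genes does not set the list apart from these shares. Of 5 partners of Egr and Nr4a proteins, Nab1, a corepressor of Egr factors, rose against 5d-U from 8.15 to 26.5 RPKM (log2 fold change 1.70, SE 0.47, adjusted p = 0.0189, edgeR's quasi-likelihood test), while Nab2, Rxra, Rxrb and Rxrg, the last 3 encoding receptors that pair with Nr4a1 or Nr4a2, were not called.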

How the data were processed

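RNA was measured in 12 libraries of amplified cDNA by single-end sequencing. Reads were aligned by the authors to mm10 with nf-core RNA-seq 1.4.2 and counted on GENCODE vM23 exons with featureCounts 1.6.4, without regard to strand. The deposited values are raw counts for 55335 genes, and 0 exon bases of the members overlap another gene. A merged table of the same counts was not used.

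Counts were fitted with edgeR 4.0.16 in R 4.3.3 (filterByExpr by group, 22635 genes, TMM, 1 quasi-likelihood model over all 12 libraries). Tests were two-sided with Benjamini-Hochberg adjustment over all tested genes and a threshold of 0.05. Each SE was back-calculated as the absolute log2 fold change divided by the square root of the test's quasi-likelihood F statistic. The 95% intervals were built from this SE. Exact permutation tests of 3 against 3 libraries cannot go below p = 0.1 and were not run. The fits were tested on simulated data.

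Alternatives were DESeq2 1.42.0, no TMM, no filter, the 2 compared groups alone, the replicate number as a block, subtraction of reads expected from silent families, and each library left out. The 3 libraries richest in silent-family reads were also left out together, a setting chosen after the data were seen. Named were the members, the genes of the short lists, and of the longer lists the 3 with the highest mean RPKM and the 3 with the smallest p in 2+3d-C against 5d-U, plus the 5 genes most like the members. Members and lists were chosen with earlier results of these data known.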

Additional observations from a re-analysis of the deposited data

How the results depend on the processing

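The number of members called in 2+3d-C against 5d-U (8), 2+3d-C against 2d-U (9) and F against 2d-U (10) stayed within a factor of 1.5 of these values under every alternative run. In 2+3d-C against F it went from 1 to 0 without TMM, with the 2 groups alone and without the 3 libraries with most silent-family reads, and was 0 to 1 with single libraries left out. In F against 5d-U it was 8, and it fell by more than that factor without those 3 libraries, a setting that leaves a single F library. In 5d-U against 2d-U it went from 1 to 5 with DESeq2, to 4 without a filter, and to 0 without TMM, with silent-family reads subtracted or without the 3 libraries, and was 0 to 3 with single libraries left out. Without TMM, 44.7% of the calls over all genes in 2+3d-C against 2d-U were higher, in place of 64.9%, 10.4% in place of 30.2% in 2+3d-C against F, and 73.7% in place of 88.5% in 5d-U against 2d-U. With DESeq2 the share was 16.2% in 2+3d-C against F and 58.5% in place of 43.4% in F against 5d-U. The median log2 fold change of all tested genes in 2+3d-C against F was -1.24 without TMM and -3.13 without a filter, in place of -0.76. Over all alternatives with no single library left out, the median of all tested genes ran from -2.02 to -0.21 in 2+3d-C against 5d-U and from -0.37 to 3.64 in F against 2d-U, and the share of calls that were higher from 19% (replicate block) to 48.2% in 2+3d-C against 5d-U, where it was 40.5%.

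Signs turned for log2 fold changes that were not called. In 2+3d-C against F, Egr2 was -0.10 and Egr4 -0.02 with DESeq2, -0.33 and -0.15 without TMM, and -0.12 and -0.02 with the 2 groups alone, and Egr2 was -0.03 with silent-family reads subtracted. In F against 5d-U, Srf was 0.17 with DESeq2, 0.07 without TMM and 0.02 with silent-family reads subtracted. In 5d-U against 2d-U, Ier2 was -0.10 with DESeq2, -0.30 without TMM, -0.16 without a filter, -0.21 with the 2 groups alone and -0.06 with silent-family reads subtracted, and Nr4a2 was -0.12 without TMM and -0.02 with the 2 groups alone. With single libraries left out, Egr4 ran from -6.35 to 4.23 in 2+3d-C against 5d-U, and in 2+3d-C against F Egr2 ran from -0.16 to 0.29, Egr4 from -8.80 to 0.78, Nr4a2 from -0.57 to 0.11, Nr4a3 from -1.12 to 0.03 and Ier3 from -0.12 to 1.09. Srf ran from -0.45 to 0.36 in F against 5d-U, and Nr4a2 from -0.02 to 0.43 and Ier2 from -0.20 to 0.22 in 5d-U against 2d-U. Egr4 in 2+3d-C against 2d-U has no value without 2+3d-C replicate 10, since both groups then have no read.

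The labels do not say whether libraries with the same replicate number share a sort or a culture. The study states that cells of each sort were distributed at random over the conditions. Deviations from the group means of same-numbered libraries correlated at -0.42 to 0.03, and 2+3d-C and 5d-U share no number. With means of 3 libraries and unequal silent-family reads, these correlations cannot decide whether the numbers mark shared batches. With the number as a block, 2d-U replicate 3, 5d-U replicate 6 and 2+3d-C replicate 10 have no partner and inform no log2 fold change. With this block, 7 members were called in 2+3d-C against 5d-U (3.22% of all tested genes higher) and 7 in 2+3d-C against 2d-U (4.82%). In F against 2d-U it was 7 (9.5%), and in F against 5d-U 6 (3.66%). In 2+3d-C against F (1.19% of all tested genes higher, 7.47% lower), only Egr4 was called (-9.38, adjusted p = 0.0429, edgeR's quasi-likelihood test). Ier2 was not (1.89, adjusted p = 0.0694). Nr4a2 was no longer called in 2+3d-C against 5d-U (2.40, adjusted p = 0.115), 2+3d-C against 2d-U (2.62, adjusted p = 0.163) and F against 5d-U (2.42, adjusted p = 0.112), nor was Ier2 in F against 2d-U (2.35, adjusted p = 0.0691) and F against 5d-U (2.29, adjusted p = 0.123), or Egr4 and Srf in F against 2d-U (7.38 and -1.88, adjusted p = 0.123 and 0.273). The block turned Egr4 to -8.92 and Srf to -0.63 in 2+3d-C against 5d-U, Egr4 to -2.00 in 2+3d-C against 2d-U and Nr4a3 to 0.07 in 2+3d-C against F, none of them called. Without replicate 10, 2+3d-C has no Egr4 read. The cause of the other changes was not tested. Levels near 3 reads, as for Egr3, Egr4 and Nr4a3 in uncompressed cultures, are limited by depth and by reads on silent families.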
